A study of Mus musculus with 21 samples.

Results

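The genes described here are 31 chaperones, folding enzymes, degradation factors and stress sensors of the endoplasmic reticulum (ER), taken by name from a list of the unfolded protein response and its targets. Every listed symbol was found among the 17164 genes of the count table, and all 31 passed the filter on low counts that left 16797 genes for testing. They comprise 4 sensors and factors of the response (Ern1, Atf6, Eif2ak3, Xbp1), 7 genes of the chaperone BiP and its partners, 3 chaperones of the Hsp90 and lectin families, 7 genes of disulfide bond formation, and 10 genes of ER-associated degradation (ERAD) and translocation. The rule uses no measured value. The RNA came from cells labelled as retinal ganglion cells, which send their axons through the optic nerve, sorted from C57BL/6 mice aged 6 to 7 weeks at 3 days after optic nerve crush. The libraries are labelled by guide RNAs against ATF3 (5 libraries), ATF4 (2 libraries), CEBPG (4 libraries) or CHOP (5 libraries), which are bZIP transcription factors of the stress response, or as control (4 libraries, with the genotype WT Control). The sources used here do not say how the guides were delivered, what share of cells was edited or whether a library pools animals.

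Proteins that enter the ER are folded there by chaperones and oxidised by disulfide isomerases, and those that fail to fold are returned to the cytosol and degraded. When unfolded protein builds up, the sensors IRE1 (gene Ern1), ATF6 and PERK (gene Eif2ak3) are released from the chaperone BiP. IRE1 splices the mRNA of Xbp1, ATF6 is cleaved to a transcription factor, and PERK slows translation while favouring that of ATF4, which acts with partners such as CEBPG and induces CHOP and ATF3. In the retina, injury of the optic nerve is known to switch on the PERK branch in ganglion cells, and loss of CHOP is known to spare some of these cells in mice. Chaperone genes are known targets of ATF6 and XBP1, whereas ATF4 is known mainly for genes of amino acid supply.

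The classical binding site of ATF6 and XBP1 is the ER stress response element (ERSE), shown here because it links the chaperones whose values are described below. Promoter windows from 250 bases before to 50 bases after the gene start were taken from RefSeq on build GRCm38.p6 and matched 27 of the 31 genes. The ERSE (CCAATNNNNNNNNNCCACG, either strand) was present in 10 of these 27 windows (37.0%) and in 39 of all 32851 windows (0.119%). The 10 genes were Hspa5, Dnajc3, Hsp90b1, Calr, Canx, Pdia6, Creld2, Ero1lb, Derl3 and Syvn1. Stretches around the element follow for the 4 of them with the smallest adjusted p-values in any comparison, written along the strand of the gene with the fixed bases of the element in capitals.
Hspa5, chr2:34772005-34772063, plus strand: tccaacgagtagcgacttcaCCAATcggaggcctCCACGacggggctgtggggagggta
Hsp90b1, chr10:86705513-86705676, minus strand: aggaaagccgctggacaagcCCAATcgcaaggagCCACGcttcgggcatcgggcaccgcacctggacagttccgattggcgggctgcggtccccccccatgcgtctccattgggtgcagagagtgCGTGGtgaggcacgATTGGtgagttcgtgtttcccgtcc
Canx, chr11:50325780-50325838, minus strand: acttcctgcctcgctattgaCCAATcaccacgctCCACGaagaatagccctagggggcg
Calr, chr8:84847055-84847113, minus strand: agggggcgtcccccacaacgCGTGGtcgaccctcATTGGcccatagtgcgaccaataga
Hsp90b1 carried the element in both orientations. A second form, ERSE-II, was present in 2 of the 27 windows, Dnajb11 and Herpud1, and in 0.0365% of all windows. The unfolded protein response element (TGACGTGG) was in none of the 27 and in 0.676% of all windows. The C/EBP-ATF element that ATF4 binds (TGATGNAA) was in 1 of the 27, Herpud1, and in 3.97% of all windows. A match in a window of this length is a description of the sequence, and both of the ERSE forms have 5 of their bases, CCACG, in common.

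Several features of the libraries bear on every value that follows. Library totals were 25267560 to 32776378 in ATF3, 11929692 to 12404601 in ATF4, 9000250 to 29810987 in CEBPG and 14272784 to 31543917 in CHOP knockouts, against 6401446 to 11752828 in the controls. The ATF3, CEBPG and CHOP knockouts are female mice of batch 3 in the sample sheet, the ATF4 knockouts are batch 1, and the controls are male mice of batch 2. Knockout and batch cannot be told apart against control. For the ATF3, CEBPG and CHOP knockouts the same holds for knockout and sex. In the sheet ATF4 replicate 3 is male. The sheet calls ATF4 replicate 1 female, yet it held 3 reads of Xist, a transcript of the inactive X chromosome, and 709 reads of Ddx3y, a gene of the Y chromosome, so the counts and the main ATF4 calls are also given without it. That leaves an ATF4 group of 1 library, which is assumed to vary like the other groups. A further library, titled as a control but with the CHOP knockout as its genotype, was left out of all comparisons. CEBPG replicates 6 and 8 stood apart from all other libraries and from each other on a component holding 7.01% of the variance of all genes (scores of -99.33 and 102.1). The transcript of the targeted gene was lower in every library of the ATF3, ATF4 and CHOP knockouts than in any control, whereas Cebpg ranged from 49.2 to 92.4 CPM in CEBPG knockouts and from 74.6 to 93.6 CPM in the controls. Ganglion cell markers were scarce in all groups, and the means of 12 such genes together were 0.0508% to 0.0690% of counts in the knockouts and 0.0539% in the controls. Gene by gene, 5 of these 12 were called higher and 4 lower in ATF3, 6 and 0 in ATF4, 2 and 3 in CEBPG and 4 and 3 in CHOP knockouts. Rod markers (12 genes) took 0.421 ± 0.0111% of counts in ATF3, 0.417 ± 0.0574% in ATF4, 0.428 ± 0.105% in CEBPG and 0.746 ± 0.147% in CHOP knockouts, against 4.60 ± 0.977% in the controls (SD, n = 5, 2, 4, 5 and 4). All 12 were called lower in each knockout. Of 9 amacrine markers 8 were called higher in each knockout, and of 9 T and NK lymphocyte markers 9 were in ATF3, 6 in ATF4, 9 in CEBPG and 8 in CHOP knockouts. Of 9 bipolar markers 1 was called higher and 3 lower in ATF3, 0 and 3 in ATF4, and 0 and 9 in each of the CEBPG and CHOP knockouts. The part of these markers in the results below was not tested.

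Against control, most of the called genes were lower in ATF4 knockouts and higher in the other knockouts, while the share of the 31 that passed the test was near that of all genes and is not in itself a result about them. Levels (CPM) are counts relative to library size, scaled with TMM factors. Fold changes are log2 with their standard error (SE), and a gene is called at an adjusted p below 0.05 in edgeR's quasi-likelihood test over all 16797 genes. In the ATF3 knockouts 12 of the 31 genes were called (38.7%; 9 higher and 3 lower), where 33.4% of all genes tested were called. The ATF4 knockouts had 10 calls (32.3%; 2 higher and 8 lower), against 31.3% of all genes. In the CEBPG knockouts 8 were called (25.8%; 7 higher and 1 lower) and in CHOP knockouts 10 (32.3%; 6 higher and 4 lower), against 33.4% and 33.5% of all genes. By direction, 18.6% of all genes were called higher and 14.8% lower in ATF3, 16.6% and 14.6% in ATF4, 18.3% and 15% in CEBPG, and 18.1% and 15.4% in CHOP knockouts. The ranges of the 2 groups were apart for 13, 14, 8 and 6 of the 31 genes in the same order, or 41.9%, 45.2%, 25.8% and 19.4%, where they were apart for 34.3%, 44.8%, 26.9% and 28.9% of all genes. The median log2 fold change of the 31 genes was 0.22 in ATF3, -0.23 in ATF4, 0.15 in CEBPG and 0.14 in CHOP knockouts, and that of all genes was 0.06, 0, 0.06 and 0.01 in that order. These 4 comparisons share their controls. Without ATF4 replicate 1 the ATF4 count was 4, all lower, where 19.7% of all genes were called, and 21 of the 31 lay outside the control range (6 above and 15 below), where 60.6% of all genes did. The ATF4 median log2 fold change was then -0.19. Without CEBPG replicates 6 and 8 together the CEBPG count was 13, where 31% of all genes were called. Leaving out control replicate 5 brought the CEBPG count to 5, where 28.8% of all genes were called. With the log2 level of the rod markers as a covariate no gene of the 31 was called against control, with adjusted p-values of 0.428 to 1 over the 40 calls. Of all genes 0.0476%, 0.0833%, 0.161% and 0.202% were then called in ATF3, ATF4, CEBPG and CHOP knockouts, so that the loss is not a result about these 31. The split between knockouts and controls held 90.4% of the variance of that covariate.

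**Figure D1:**
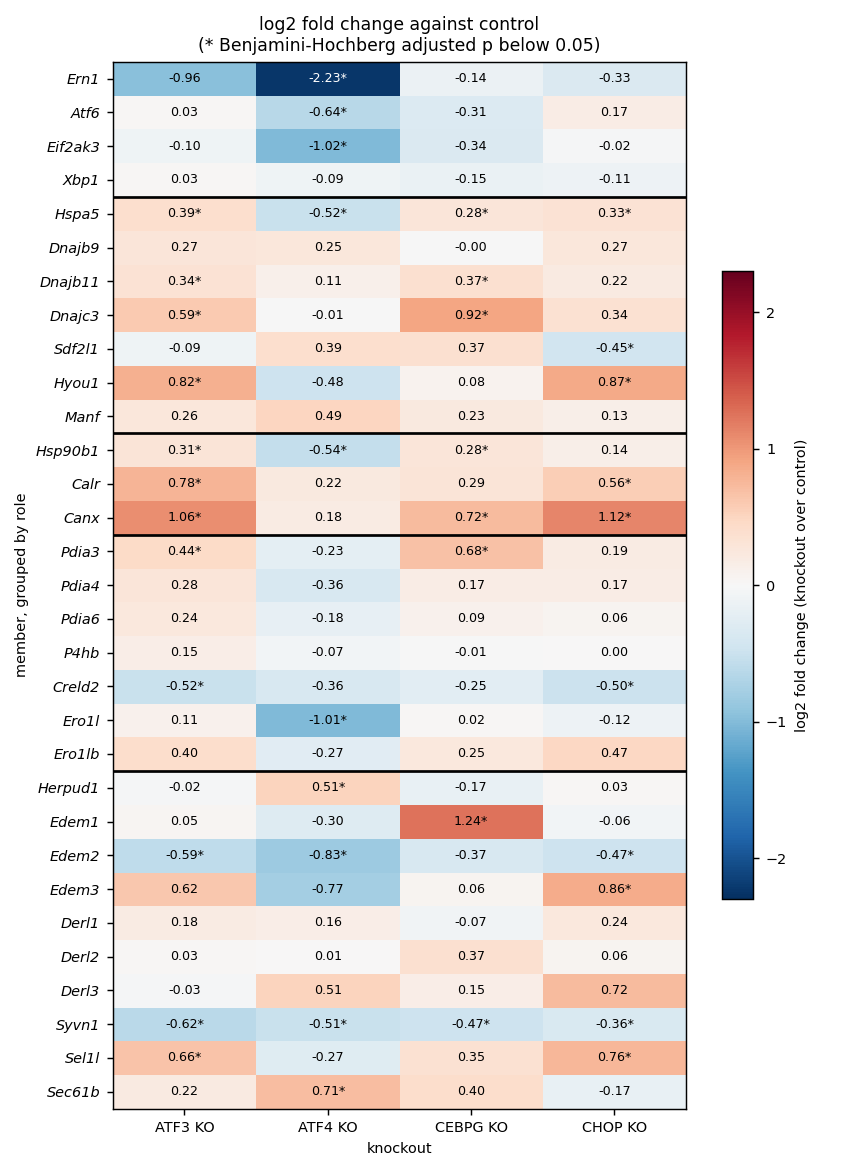
log2 fold change of the 31 genes (rows, grouped by role) in each knockout over control (columns), coloured from blue for lower to red for higher, with an asterisk where the adjusted p was below 0.05. The ATF4 column is the one with 8 of its 10 calls lower, and Syvn1 is called lower in all 4 columns.

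The 31 genes together took 0.596 ± 0.00821% of counts in ATF3, 0.411 ± 0.0166% in ATF4, 0.585 ± 0.0185% in CEBPG and 0.565 ± 0.0185% in CHOP knockouts, against 0.458 ± 0.0313% in the controls (SD, n = 5, 2, 4, 5 and 4). Both ATF4 libraries (0.399% and 0.422%) lay below the lowest control (0.431%), and every library of the other knockouts (0.550% or more) lay above the highest control (0.498%). In sorted cells measured in bulk, fewer cells of a type and less RNA per cell cannot be told apart. Markers of several cell types moved along with this measure. Cone markers (8 genes) took 0.162 ± 0.0120% of counts in ATF3, 0.350 ± 0.0484% in ATF4, 0.118 ± 0.0239% in CEBPG and 0.171 ± 0.0128% in CHOP knockouts, against 0.342 ± 0.0554% in the controls. T and NK lymphocyte markers took 0.0268 ± 0.00177% in ATF3, 0.00365 ± 0.00327% in ATF4, 0.181 ± 0.0345% in CEBPG and 0.0345 ± 0.00597% in CHOP knockouts, against 0.00106 ± 0.000537% in the controls. Both lists thus set the ATF4 knockouts and the controls apart from the other knockouts, as the 31 genes did. Müller glia markers were at 1.26 ± 0.0649%, 1.25 ± 0.143%, 0.972 ± 0.0883% and 0.706 ± 0.0639% in ATF3, ATF4, CEBPG and CHOP knockouts and 0.747 ± 0.163% in the controls (SD, n as above). Gene by gene, 2 of these 9 markers were called higher and 4 lower in ATF3 and 5 and 0 in ATF4 knockouts. The calls were 2 higher and 6 lower in CEBPG and 1 and 5 in CHOP knockouts. In ATF3 and CEBPG knockouts the summed share thus rose while most of the called markers fell. The part of these marker lists in the share of the 31 genes was not tested.

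**Figure D2:**
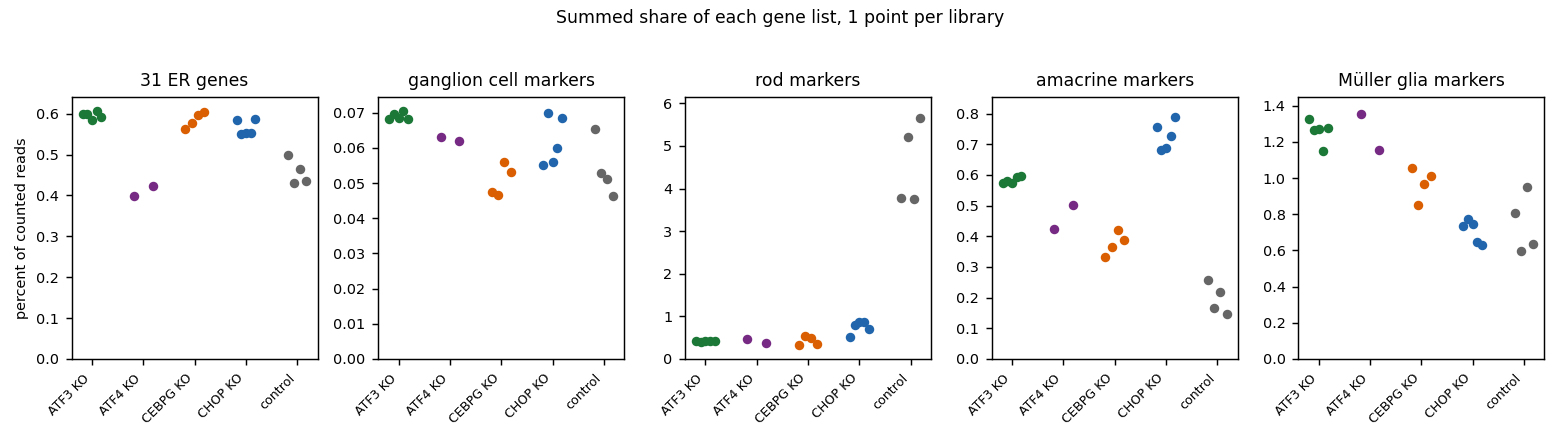
Percent of counted reads taken by the 31 ER genes and by lists of ganglion cell, rod, amacrine and Müller glia markers, with 1 point per library and the groups along the horizontal axis. The ER genes are lowest in ATF4 knockouts (0.399% and 0.422%), whereas the rod markers set the 4 controls (3.74% to 5.65%) apart from all knockouts.

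Transcripts of the 3 sensors were called lower in ATF4 knockouts and were not called in the other knockouts. Ern1, which encodes IRE1, was at 4.89, 5.96, 4.30, 4.33 and 4.46 CPM in ATF3 knockouts and 0.781 and 3.16 CPM in ATF4 knockouts. In CEBPG knockouts Ern1 was at 11.3, 7.03, 7.29 and 8.22 CPM and in CHOP knockouts at 4.27, 12, 7.59, 4.49 and 8.53 CPM, against 6.03, 13.0, 12.5 and 5.81 CPM in the controls. Both ATF4 libraries were below every control, and the ranges of the other groups overlapped that of the controls. The fall was called in ATF4 knockouts (log2 fold change -2.23, SE 0.60, adjusted p = 0.00591) and not in ATF3 knockouts (-0.96, SE 0.40, adjusted p = 0.0725). Eif2ak3, which encodes PERK, was at 52.0, 51.4, 42.6, 45.9 and 43.9 CPM in ATF3 knockouts and 20.7 and 29.1 CPM in ATF4 knockouts. In CEBPG knockouts Eif2ak3 was at 49.1, 33.4, 55.8 and 22 CPM and in CHOP knockouts at 69.0, 28.9, 45.4, 44.8 and 61.4 CPM, against 54.9, 51.2, 39.4 and 57.4 CPM in the controls. Here too both ATF4 libraries were below the lowest control (log2 fold change -1.02, SE 0.32, adjusted p = 0.0181). Atf6 was at 55.0, 59.3, 65.0, 66.6 and 66.5 CPM in ATF3 knockouts and 35.9 and 42.2 CPM in ATF4 knockouts. In CEBPG knockouts Atf6 was at 52.5, 59.5, 41.7 and 43.2 CPM and in CHOP knockouts at 70.7, 70.1, 55.6, 64.8 and 82.5 CPM, against 70.4, 70.3, 39.6 and 64.2 CPM in the controls. Its ATF4 values overlapped the lowest control at 39.6 CPM, and the call (log2 fold change -0.64, SE 0.22, adjusted p = 0.0256) was lost without ATF4 replicates 1 or 3 or control replicate 4 (adjusted p = 0.21, 0.0598 and 0.0622 in turn) and with the 2 groups fitted alone (adjusted p = 0.0733). Without ATF4 replicate 1 the calls of Ern1 (adjusted p = 0.12) and Eif2ak3 (adjusted p = 0.206) were lost as well. ATF4 replicate 1 held 9 reads of Ern1.

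Xbp1, the transcription factor that IRE1 activates by splicing, was called in no knockout. It was at 253, 243, 248, 249 and 255 CPM in ATF3 knockouts and 237 and 221 CPM in ATF4 knockouts. In CEBPG knockouts Xbp1 was at 196, 231, 248 and 209 CPM and in CHOP knockouts at 231, 201, 229, 236 and 237 CPM, against 242, 223, 265 and 249 CPM in the controls. All groups overlapped the controls, and its log2 fold changes were 0.03, -0.093, -0.15 and -0.11 in ATF3, ATF4, CEBPG and CHOP knockouts, with SEs of 0.089 to 0.12. Counts per gene hold no information on whether the Xbp1 transcript was spliced.

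BiP, encoded by Hspa5 and the main Hsp70 chaperone of the ER lumen, was called in all 4 knockouts, in 1 of them lower. Hspa5 was at 949, 957, 921, 957 and 938 CPM in ATF3 knockouts and 484 and 522 CPM in ATF4 knockouts. In CEBPG knockouts Hspa5 was at 836, 860.4, 883 and 927 CPM and in CHOP knockouts at 867, 946, 887, 923 and 896 CPM, against 830.5, 671, 720.4 and 659.8 CPM in the controls. Every library of the ATF3, CEBPG and CHOP knockouts was above the highest control, and both ATF4 libraries were below the lowest. It fell in ATF4 knockouts (log2 fold change -0.52, SE 0.11, adjusted p = 0.000568) and rose in ATF3 (0.39, SE 0.08, adjusted p = 0.000535), CEBPG (0.28, SE 0.084, adjusted p = 0.0113) and CHOP knockouts (0.33, SE 0.08, adjusted p = 0.00263). The CEBPG rise was lost without control replicates 5 or 8 (adjusted p = 0.0717 and 0.0807 in turn) and with the 2 groups fitted alone (adjusted p = 0.168). Over the 7 genes of BiP and its partners, 4 were called higher in ATF3, 3 in CEBPG and 2 in CHOP knockouts, 1 was called lower in CHOP knockouts, and in ATF4 knockouts Hspa5 was the only call. Of all genes 16.6% to 18.6% were called higher and 14.6% to 15.4% lower over the 4 comparisons. The ATF4 call of Hspa5 stayed without ATF4 replicate 1 (log2 fold change -0.47, adjusted p = 0.0209).

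Among the partners of BiP, Dnajc3, a cochaperone of the J-domain family that is also known to restrain PERK, was at 112, 100.2, 110.3, 122 and 103 CPM in ATF3 knockouts and 92.3 and 51.4 CPM in ATF4 knockouts. In CEBPG knockouts Dnajc3 was at 149, 118, 153 and 127 CPM and in CHOP knockouts at 120.0, 61.8, 92.3, 82.2 and 105 CPM, against 75.8, 87.9, 51.9 and 75.0 CPM in the controls. It rose in CEBPG (log2 fold change 0.92, SE 0.19, adjusted p = 0.000608) and ATF3 knockouts (0.59, SE 0.18, adjusted p = 0.0141), where no library overlapped the controls. The ATF3 call of Dnajc3 was lost without control replicate 7 (adjusted p = 0.0637). Sdf2l1, which works with J-domain cochaperones to keep clients soluble, was at 38.2, 39.6, 34.1, 38.3 and 38.2 CPM in ATF3 knockouts and 53.3 and 52.2 CPM in ATF4 knockouts. In CEBPG knockouts Sdf2l1 was at 58.5, 50.2, 47.2 and 51.5 CPM and in CHOP knockouts at 26.5, 29.6, 33.9, 24.1 and 33.3 CPM, against 41.6, 30.5, 49.4 and 38.9 CPM in the controls. It fell in CHOP knockouts (log2 fold change -0.45, SE 0.15, adjusted p = 0.0224) with ranges that overlapped the controls. The Sdf2l1 call did not hold without control replicate 7 (adjusted p = 0.086) and with the 2 groups fitted alone (adjusted p = 0.0671). The ATF4 and CEBPG values of Sdf2l1 lay towards or above the top of the control range without a call (0.39 and 0.37). Dnajb11, another J-domain cochaperone, rose in ATF3 (log2 fold change 0.34, SE 0.12, adjusted p = 0.031) and CEBPG knockouts (0.37, SE 0.13, adjusted p = 0.0253). The Dnajb11 call in ATF3 knockouts was lost without ATF3 replicates 7, 8 or 9 or control replicates 5 or 8 (adjusted p = 0.0598, 0.0611, 0.0568, 0.172 and 0.0847 in turn) and with RLE size factors (adjusted p = 0.0505), and that in CEBPG knockouts without CEBPG replicates 8, 9 or 10 or control replicates 5 or 8 (adjusted p = 0.0717, 0.0539, 0.107, 0.143 and 0.0714 in turn) and with the 2 groups fitted alone (adjusted p = 0.154).

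Hyou1, the nucleotide exchange factor that recharges BiP, ranged from 18.7 to 33.0 CPM in ATF3, 7.29 to 12.7 in ATF4, 11.3 to 18.4 in CEBPG and 15.6 to 35.6 in CHOP knockouts, against 8.13 to 19.4 in the controls. It rose in ATF3 (log2 fold change 0.82, SE 0.28, adjusted p = 0.0274) and CHOP knockouts (0.87, SE 0.28, adjusted p = 0.0194), with ranges that overlapped the controls. The ATF3 call of Hyou1 was lost without ATF3 replicates 7 or 8 or control replicates 7 or 8 (adjusted p = 0.0587, 0.0804, 0.0745 and 0.131 in turn), and the CHOP call without CHOP replicate 2 or control replicates 7 or 8 (adjusted p = 0.0678, 0.0608 and 0.103 in turn). Dnajb9 and Manf, a secreted BiP-binding protein known to protect retinal neurons, were called in no knockout. Manf had log2 fold changes of 0.26, 0.49, 0.23 and 0.13 in ATF3, ATF4, CEBPG and CHOP knockouts, and the ATF4 value had an adjusted p of 0.072.

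**Figure D3:**
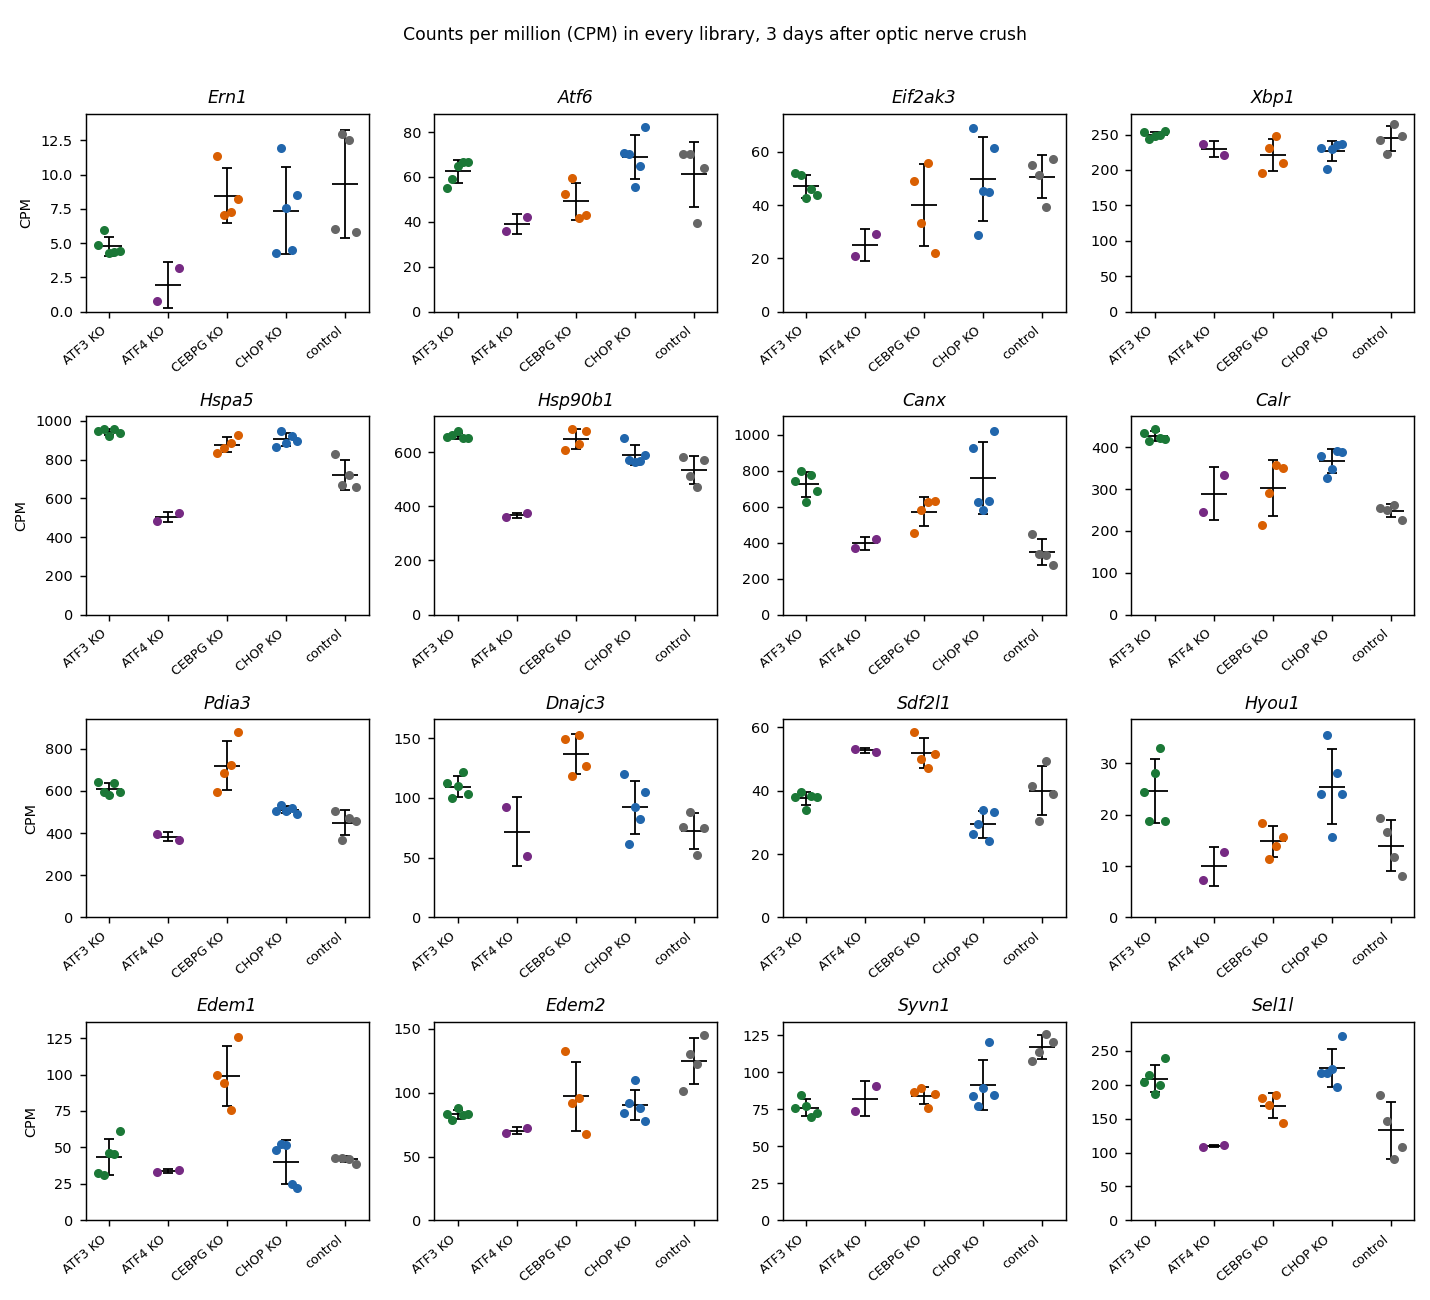
CPM of 16 of the ER genes in every library (points), with the mean and SD of each group (bar and whiskers) and each vertical axis starting at 0. Hspa5 and Hsp90b1 are lowest in both ATF4 libraries, Canx is above all controls in every ATF3, CEBPG and CHOP library, and Edem1 is highest in all 4 CEBPG libraries (75.9 to 125 CPM).

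The Hsp90 of the ER and the lectin chaperones rose in ATF3 knockouts, where all 3 genes were called. Hsp90b1, which encodes GRP94, the ER member of the Hsp90 family, was at 655, 663, 679, 652 and 651 CPM in ATF3 knockouts and 360.1 and 374 CPM in ATF4 knockouts. In CEBPG knockouts Hsp90b1 was at 606, 684, 629 and 677 CPM and in CHOP knockouts at 651, 571, 563, 568 and 589 CPM, against 583, 511, 472 and 570.2 CPM in the controls. As for Hspa5, the ATF3 and CEBPG libraries were all above and the ATF4 libraries all below the controls. Hsp90b1 fell in ATF4 knockouts (log2 fold change -0.54, SE 0.11, adjusted p = 0.000505) and rose in ATF3 (0.31, SE 0.083, adjusted p = 0.00591) and CEBPG knockouts (0.28, SE 0.087, adjusted p = 0.0144). The CEBPG call of Hsp90b1 was lost without CEBPG replicate 8 or control replicates 5 or 7 (adjusted p = 0.0818, 0.0737 and 0.0573 in turn) and with the 2 groups fitted alone (adjusted p = 0.176). The ATF4 call of Hsp90b1 stayed without ATF4 replicate 1 (log2 fold change -0.52, adjusted p = 0.0145). In the CHOP knockouts its difference was not called (0.14, SE 0.083).

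Canx, the membrane-bound lectin calnexin that holds newly made glycoproteins, was at 741, 795, 625, 776 and 687 CPM in ATF3 knockouts and 367 and 422 CPM in ATF4 knockouts. In CEBPG knockouts Canx was at 453, 582, 623 and 629 CPM and in CHOP knockouts at 924, 628, 581, 630.0 and 1021 CPM, against 447, 335, 330.5 and 277 CPM in the controls. Every library of the ATF3, CEBPG and CHOP knockouts was above the highest control. The rise was called in ATF3 (log2 fold change 1.06, SE 0.16, adjusted p = 1.81e-05), CEBPG (0.72, SE 0.17, adjusted p = 0.00173) and CHOP knockouts (1.12, SE 0.16, adjusted p = 7.96e-06), and not in ATF4 knockouts (0.18, SE 0.20, adjusted p = 0.541). Within the CHOP group, replicates 1 and 5 were well above the other 3 libraries. Calr, its soluble counterpart calreticulin, was at 433, 414, 444, 423 and 420.3 CPM in ATF3 knockouts and 244 and 334 CPM in ATF4 knockouts. In CEBPG knockouts Calr was at 213, 289, 358 and 351 CPM and in CHOP knockouts at 379, 326, 347, 391 and 388 CPM, against 254, 251, 262 and 226 CPM in the controls. It rose in ATF3 (log2 fold change 0.78, SE 0.12, adjusted p = 2.98e-05) and CHOP knockouts (0.56, SE 0.12, adjusted p = 0.00101) with no overlap with the controls. In the CEBPG knockouts the lowest Calr library, at 213 CPM, was below all controls, and the difference was not called (adjusted p = 0.0895). No call of Canx or Calr against control was lost when any 1 library was left out.

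Of the 7 genes of disulfide bond formation, few were called against control. Pdia3 (ERp57), the isomerase that works on the clients of Canx and Calr, was at 643, 595, 582, 639 and 593 CPM in ATF3 knockouts and 397 and 368 CPM in ATF4 knockouts. In CEBPG knockouts Pdia3 was at 595, 684, 723 and 877 CPM and in CHOP knockouts at 506, 534, 503, 520.1 and 491 CPM, against 504, 369, 469 and 455 CPM in the controls. It rose in CEBPG (log2 fold change 0.68, SE 0.11, adjusted p = 2.79e-05) and ATF3 knockouts (0.44, SE 0.10, adjusted p = 0.00174), where no library overlapped the controls, and both calls held when any 1 library was left out. Ero1l, the oxidase that supplies disulfide bonds to the isomerases, was at 46.4 to 60.3 CPM in ATF3, 19.7 to 28.0 in ATF4, 39.9 to 54.9 in CEBPG and 38.2 to 54.5 in CHOP knockouts, against 23.4 to 65.8 CPM in the controls. It fell in ATF4 knockouts (log2 fold change -1.01, SE 0.29, adjusted p = 0.00865), although the lowest control overlapped them, and the Ero1l call was lost without ATF4 replicate 3 (adjusted p = 0.136). Creld2, a secreted ER stress protein with isomerase activity, fell in ATF3 (log2 fold change -0.52, SE 0.14, adjusted p = 0.00489) and CHOP knockouts (-0.50, SE 0.14, adjusted p = 0.00657), to 50.7 ± 1.39 and 51.4 ± 9.81 CPM, against 72.7 ± 8.67 CPM in the controls (SD, n = 5, 5 and 4). Pdia4, Pdia6, P4hb (protein disulfide isomerase itself) and the second oxidase Ero1lb were called in no knockout against control. P4hb had log2 fold changes of 0.15, -0.066, -0.0054 and 0.0013 in ATF3, ATF4, CEBPG and CHOP knockouts.

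The 10 genes of ERAD and translocation did not move together in any knockout. Syvn1, the ubiquitin ligase HRD1 at the centre of the pathway, was at 75.9, 84.6, 77.0, 69.8 and 72.6 CPM in ATF3 knockouts and 73.7 and 90.7 CPM in ATF4 knockouts. In CEBPG knockouts Syvn1 was at 86.4, 89.1, 75.8 and 85.0 CPM and in CHOP knockouts at 84.1, 77.5, 89.6, 121 and 84.4 CPM, against 107, 113, 126 and 121 CPM in the controls. It was called lower in all 4 knockouts, in ATF3 (log2 fold change -0.62, SE 0.12, adjusted p = 0.000363), ATF4 (-0.51, SE 0.16, adjusted p = 0.02), CEBPG (-0.47, SE 0.13, adjusted p = 0.00658) and CHOP knockouts (-0.36, SE 0.12, adjusted p = 0.0281). CHOP replicate 4, at 121 CPM, overlapped the controls, and the other knockout libraries did not. The Syvn1 call in ATF4 knockouts was lost without ATF4 replicate 1 (adjusted p = 0.248) and with the 2 groups fitted alone (adjusted p = 0.0528), and that in CHOP knockouts without CHOP replicates 2 or 5 or control replicate 7 (adjusted p = 0.0636, 0.0529 and 0.0589 in turn) and with the 2 groups fitted alone (adjusted p = 0.0575). Sel1l, the membrane partner that holds HRD1 in its complex, went the other way and was at 203, 215, 186, 199 and 239.7 CPM in ATF3 knockouts and 108 and 111 CPM in ATF4 knockouts. In CEBPG knockouts Sel1l was at 180.0, 169.8, 184 and 143 CPM and in CHOP knockouts at 217, 217, 223, 196 and 272 CPM, against 184, 147, 90.6 and 108 CPM in the controls. It rose in CHOP (log2 fold change 0.76, SE 0.15, adjusted p = 0.000411) and ATF3 knockouts (0.66, SE 0.15, adjusted p = 0.00181), where every library was above the highest control. The ATF4 and CEBPG differences of Sel1l were not called (-0.27 and 0.35).

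The 3 related genes with mannosidase-like domains, Edem1, Edem2 and Edem3, which mark misfolded glycoproteins for removal, each had their own pattern. Edem1 was at 32.3, 30.8, 46.5, 45.5 and 61.3 CPM in ATF3 knockouts and 33.1 and 34.6 CPM in ATF4 knockouts. In CEBPG knockouts Edem1 was at 99.6, 94.3, 75.9 and 125 CPM and in CHOP knockouts at 48.4, 52.6, 51.6, 24.6 and 22.5 CPM, against 42.9, 43.1, 42.3 and 38.7 CPM in the controls. All 4 CEBPG libraries were above every library of the other groups, and the rise was called there alone (log2 fold change 1.24, SE 0.26, adjusted p = 0.000495) and held when any 1 library was left out. Edem2 was at 83.4, 78.5, 88.0, 82.2 and 83.7 CPM in ATF3 knockouts and 68.2 and 72.0 CPM in ATF4 knockouts. In CEBPG knockouts Edem2 was at 133, 92.1, 95.9 and 67.7 CPM and in CHOP knockouts at 84.2, 92.0, 109.6, 88.4 and 77.9 CPM, against 102, 131, 123 and 145 CPM in the controls. It fell in ATF4 (log2 fold change -0.83, SE 0.20, adjusted p = 0.00243), ATF3 (-0.59, SE 0.15, adjusted p = 0.00321) and CHOP knockouts (-0.47, SE 0.15, adjusted p = 0.0167), with no overlap with the controls in ATF3 and ATF4 groups. Its ATF4 call stayed without ATF4 replicate 1 (log2 fold change -0.80, adjusted p = 0.0388). The CHOP call of Edem2 was lost without control replicate 8 (adjusted p = 0.0532). In the CEBPG knockouts Edem2 ranged from 67.7 to 133 CPM and was not called. Edem3 rose in CHOP knockouts (log2 fold change 0.86, SE 0.26, adjusted p = 0.0118), at 72.3 ± 19.2 CPM against 40 ± 17.2 CPM in the controls (SD, n = 5 and 4), and the control at 15.0 CPM was far below the other controls.

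Herpud1, a membrane scaffold of the HRD1 complex, and Sec61b, a subunit of the translocation channel, were the only genes of the 31 called higher in ATF4 knockouts. Herpud1 reached 328 ± 26.2 CPM in ATF4 knockouts, against 229 ± 31.7 CPM in the controls (SD, n = 2 and 4; log2 fold change 0.51, SE 0.12, adjusted p = 0.00243). Sec61b reached 70.1 ± 17.9 CPM against 42.9 ± 4.59 CPM (log2 fold change 0.71, SE 0.18, adjusted p = 0.00475). Both ATF4 libraries were above all controls for each gene. The Herpud1 call was lost without ATF4 replicate 1 (adjusted p = 0.0599) and with the 2 groups fitted alone (adjusted p = 0.0618), and the Sec61b call without ATF4 replicate 1 (adjusted p = 0.211). Derl1, Derl2 and Derl3, membrane proteins of the exit channel, were called in no knockout, and Derl3 was low throughout, at 1.46 to 9.88 CPM per library.

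In all, 21 of the 31 genes (67.7%) were called against control in at least 1 knockout and 10 in none, where 59.2% of all genes were called in at least 1. Only Hspa5 and Hsp90b1 were called in both directions. Among the 10 genes with an ERSE, 5 were called higher and 2 lower in ATF3, 4 and 1 in CEBPG, 3 and 2 in CHOP and 0 and 3 in ATF4 knockouts. Among the 17 genes whose window held no ERSE, 3 were called higher and 1 lower in ATF3, 3 and 0 in CEBPG, 2 and 2 in CHOP and 2 and 4 in ATF4 knockouts. Of all genes, 18.6% were called higher and 14.8% lower in ATF3, 18.3% and 15% in CEBPG, 18.1% and 15.4% in CHOP and 16.6% and 14.6% in ATF4 knockouts. With 10 and 17 genes no difference between these counts was tested. Among the printed promoters, those of Hspa5 and Hsp90b1 belong to the genes that moved in both directions and those of Canx and Calr to genes called higher and in no knockout lower. Syvn1 and Creld2, which also carry the element, were called lower.

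Levels of the 31 genes can be compared per length of exon in the controls. Hspa5 was highest, at 170.4 ± 18.4 CPM per kb, followed by Pdia3 at 143 ± 18.3, Hsp90b1 at 132 ± 12.9, P4hb at 107 ± 10.1 and Herpud1 at 98.4 ± 13.6 (SD, n = 4), and neighbours in this order differed by less than the sum of their SDs except Hsp90b1 and P4hb. The lowest were Derl3 at 1.97 ± 0.729, Hyou1 at 1.94 ± 0.692 and Ern1 at 1.14 ± 0.482 CPM per kb. The order of the leading 3 genes differed in ATF4, CEBPG and CHOP knockouts. In the ATF4 knockouts Herpud1 stood first at 140.5 ± 11.2 CPM per kb, before Pdia3 at 122 ± 6.63 and Hspa5 at 119 ± 6.30 (SD, n = 2). In the CEBPG knockouts Pdia3 stood at 229 ± 37.4 CPM per kb and Hspa5 at 207 ± 9.20 (SD, n = 4). In the CHOP knockouts Canx, at 161 ± 42.8 CPM per kb, followed Hspa5 at 214 ± 7.35 and Pdia3 at 163 ± 5.29 (SD, n = 5). Pdia3 and Hspa5 in ATF4 and CEBPG knockouts, and Pdia3 and Canx in CHOP knockouts, differed by less than the sum of their SDs.

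Since the ATF4 knockouts stood apart from the other knockouts, they were also compared with them directly, a choice made after the data had been seen. These libraries come from different batches (batch 1 against batch 3). Both ATF4 libraries held reads of the Y-linked Ddx3y (709 and 796), and every ATF3, CEBPG and CHOP library held 0. Knockout cannot be told apart from batch here either, nor from sex as read from these counts. Against the ATF3 knockouts 15 of the 31 genes were called (48.4%; 2 higher and 13 lower), where 24.7% of all genes were called and 12.9% were called lower. Against the CHOP knockouts 16 were called (51.6%; 3 higher and 13 lower), where 25.7% of all genes were called and 13.2% lower, and against the CEBPG knockouts 10 (32.3%; 1 higher and 9 lower), where 30.9% were called and 15.6% lower. The ranges were apart for 23 of the 31 genes against the ATF3 (74.2%, where 48.7% of all genes were), 12 against the CEBPG (38.7%, where 41.2% were) and 17 against the CHOP knockouts (54.8%, where 40.7% were). The median log2 fold change of the 31 genes was -0.42 against the ATF3, -0.36 against the CEBPG and -0.34 against the CHOP knockouts, and that of all genes was -0.03, -0.02 and -0.04 in that order. Without ATF4 replicate 1 the counts were 6 against the ATF3 knockouts (9.38% of all genes), 7 against the CEBPG knockouts (19%) and 6 against the CHOP knockouts (10.2%). The medians were then -0.35, -0.30 and -0.30. Outside the range of the other group were 25 genes against the ATF3, 17 against the CEBPG and 19 against the CHOP knockouts, where 66.9%, 55.5% and 56.8% of all genes were.

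Markers of other cells moved with these comparisons. Of 8 cone markers 6 were called higher and none lower in ATF4 knockouts against each of the ATF3, CEBPG and CHOP knockouts. T and NK lymphocyte markers were called lower for 8, 9 and 9 of 9 in the same order. Of 9 Müller glia markers 3 were called higher and 1 lower against the ATF3, 7 and 0 against the CEBPG and 6 and 1 against the CHOP knockouts. Ganglion cell markers (12 genes) were called higher for 5 and lower for 1 against the ATF3, 5 and 0 against the CEBPG and 4 and 1 against the CHOP knockouts. Bipolar markers were higher for 8 of 9 against the CEBPG and 7 of 9 against the CHOP knockouts, and rod markers were lower for 8 of 12 against the CHOP knockouts. Of 9 microglia markers 3 were called higher and 3 lower against the ATF3 knockouts. The counts were 1 and 3 against the CEBPG and 5 and 1 against the CHOP knockouts. Of 9 amacrine markers 2 were called higher and 4 lower against the ATF3 knockouts. Those counts were 3 and 1 against the CEBPG and 1 and 4 against the CHOP knockouts. The part of all these markers in the differences of the 31 genes was not tested.

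Hspa5, Hsp90b1 and Pdia3 were lower in ATF4 knockouts than in each of the other knockouts. For Hspa5 the log2 fold change was -0.91, SE 0.10, adjusted p = 4.8e-06 against the ATF3, -0.80, SE 0.11, adjusted p = 5.45e-06 against the CEBPG and -0.85, SE 0.10, adjusted p = 1.11e-05 against the CHOP knockouts. For Hsp90b1 it was -0.85, SE 0.11, adjusted p = 1.42e-05, -0.82, SE 0.11, adjusted p = 5.82e-06 and -0.68, SE 0.11, adjusted p = 0.000117 in the same order. These calls stayed at an adjusted p below 0.05 when any 1 library was left out, although the ATF4 group is 1 library, with its spread taken from the other groups, where ATF4 replicate 1 or 3 is the one left out. Pdia3 was lower by a log2 fold change of -0.67, -0.91 and -0.42, and the Pdia3 call against the CHOP knockouts was lost without ATF4 replicates 1 or 3 (adjusted p = 0.0894 and 0.159 in turn). Pdia4 (ERp72), Ero1l and Sel1l were also lower against all 3 knockouts. Pdia4 had values of -0.64, -0.53 and -0.53 and lost all of its calls without ATF4 replicate 1 (adjusted p = 0.22, 0.335 and 0.378). Ero1l had -1.12, -1.03 and -0.89 and lost them without ATF4 replicate 3 (adjusted p = 0.0972, 0.127 and 0.223). Sel1l had -0.93, -0.63 and -1.04, and its call against the CEBPG knockouts was lost without ATF4 replicates 1 or 3 (adjusted p = 0.124 and 0.0922 in turn) and without CEBPG replicates 6 and 8 together (adjusted p = 0.0508).

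Further differences were called against some or all of the knockouts. Canx was lower than in ATF3 (log2 fold change -0.88, SE 0.21, adjusted p = 0.0036) and CHOP knockouts (-0.94, SE 0.21, adjusted p = 0.00204), both lost without ATF4 replicate 1 (adjusted p = 0.0826 and 0.0596). Edem1 was lower than in CEBPG knockouts (-1.55, SE 0.33, adjusted p = 0.00102), a call that held when any 1 library was left out. Edem3 was lower than in CHOP (-1.63, SE 0.35, adjusted p = 0.00143) and ATF3 knockouts (-1.39, SE 0.34, adjusted p = 0.00468), the ATF3 call being lost without ATF4 replicate 1 (adjusted p = 0.0841). Herpud1 was higher in ATF4 knockouts than in each of the others, by 0.53 against the ATF3, 0.69 against the CEBPG and 0.48 against the CHOP knockouts. Without ATF4 replicate 1 Herpud1 was called against the CEBPG knockouts alone (adjusted p = 0.0685 against the ATF3 and 0.108 against the CHOP knockouts). The sensors were lower where called, with Atf6 and Eif2ak3 called against the ATF3 and CHOP knockouts and Ern1 against the CEBPG and CHOP knockouts. All 6 of these sensor calls were lost without ATF4 replicate 1, with adjusted p-values of 0.222 and 0.117 for Atf6, 0.323 and 0.255 for Eif2ak3, and 0.155 and 0.259 for Ern1.

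**Figure D4:**
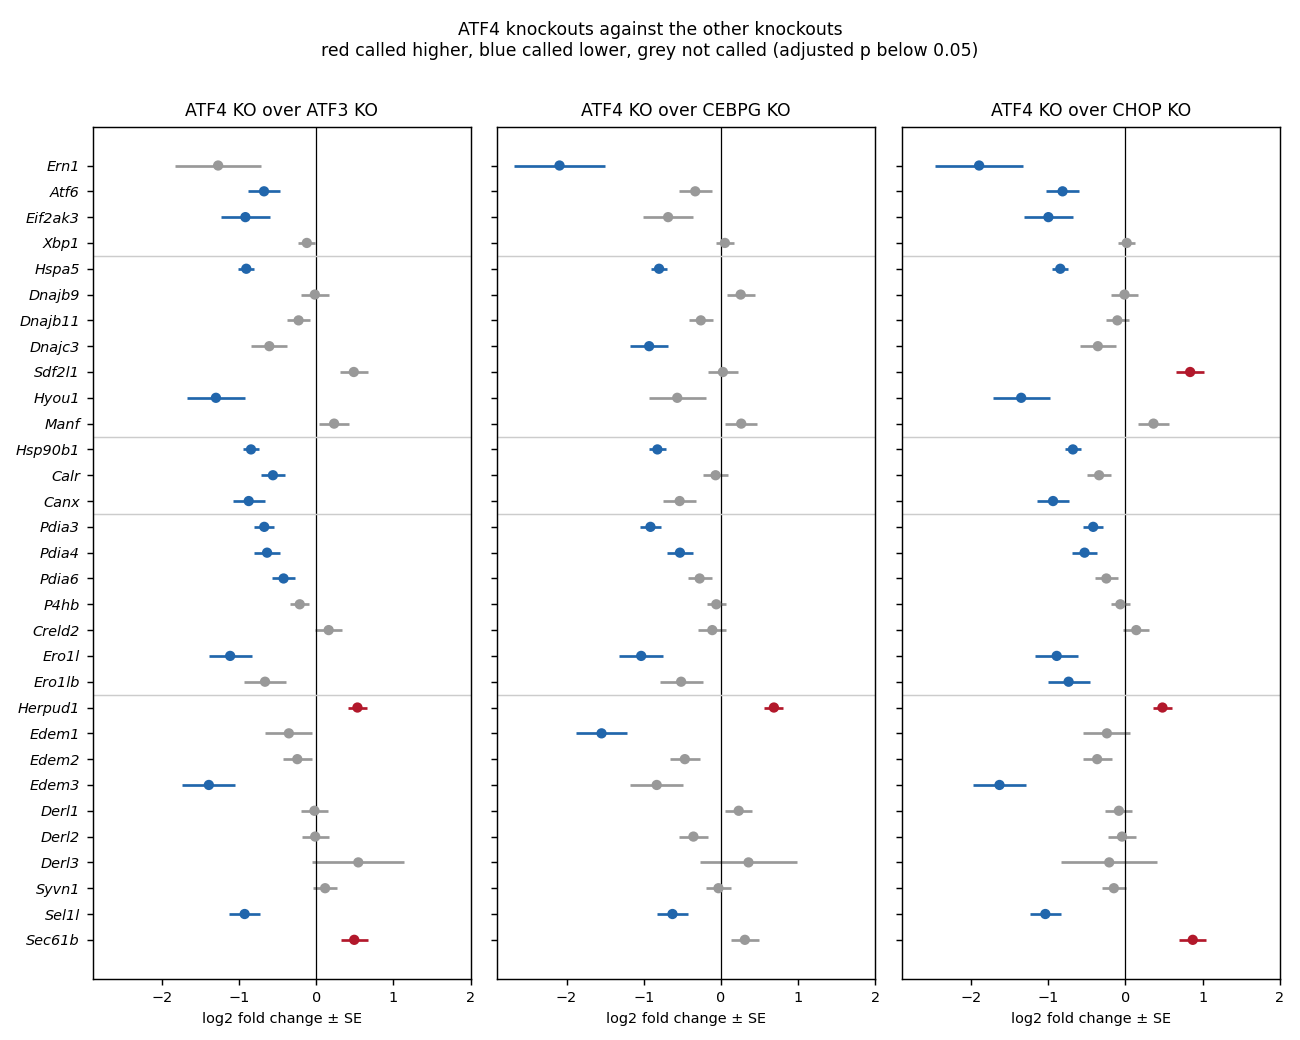
log2 fold change with its SE (horizontal axis) of the 31 genes in ATF4 knockouts over the ATF3, CEBPG and CHOP knockouts, in 1 panel each, with red for called higher, blue for called lower and grey for not called. Hspa5, Hsp90b1, Pdia3, Pdia4, Ero1l and Sel1l are blue and Herpud1 is red in all 3 panels.

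The ATF3, CEBPG and CHOP knockouts share a batch and a sex, so that differences between them do not carry those of the controls. The CEBPG knockouts differed from the CHOP knockouts in 9 of the 31 genes (29%; 5 higher and 4 lower), where 26.7% of all genes were called. The ranges were apart for 6 of the 31 (19.4%), where they were for 21.2% of all genes. Sdf2l1 (log2 fold change 0.81, SE 0.15, adjusted p = 0.000228), Edem1 (1.31, SE 0.24, adjusted p = 0.000235), Pdia3 (0.49, SE 0.10, adjusted p = 0.000823), Dnajc3 (0.57, SE 0.18, adjusted p = 0.0199) and Sec61b (0.56, SE 0.14, adjusted p = 0.00537) were higher in CEBPG knockouts, and none of these calls was lost when any 1 library was left out. All CEBPG libraries were above all CHOP libraries for Sdf2l1, Edem1, Pdia3 and Sec61b. Hyou1 (log2 fold change -0.79, SE 0.28, adjusted p = 0.0387), Edem3 (-0.80, SE 0.25, adjusted p = 0.0221), Atf6 (-0.48, SE 0.16, adjusted p = 0.0307) and Sel1l (-0.41, SE 0.15, adjusted p = 0.0484) were lower. The Hyou1 call was lost without CEBPG replicates 8, 9 or 10 or CHOP replicates 1, 2, 4 or 5 (adjusted p = 0.106, 0.0817, 0.0639, 0.0537, 0.119, 0.0743 and 0.0582 in turn) and with the 2 groups fitted alone (adjusted p = 0.0637) and without CEBPG replicates 6 and 8 together (adjusted p = 0.129). Edem3 lost its call without CEBPG replicates 6 or 10 or CHOP replicate 5 (adjusted p = 0.0586, 0.0727 and 0.0758 in turn) and without CEBPG replicates 6 and 8 together (adjusted p = 0.148). For Atf6 it was lost without CEBPG replicates 9 or 10 or CHOP replicates 1, 2 or 5 (adjusted p = 0.103, 0.0969, 0.0563, 0.0583 and 0.0956 in turn) and with the 2 groups fitted alone (adjusted p = 0.074). For Sel1l it was lost without CEBPG replicates 6, 8, 9 or 10 or CHOP replicates 1, 2, 3 or 5 (adjusted p = 0.0563, 0.0825, 0.0572, 0.159, 0.0657, 0.0726, 0.0772 and 0.148 in turn) and with RLE size factors (adjusted p = 0.0659) and without CEBPG replicates 6 and 8 together (adjusted p = 0.13). Rod markers, at 0.428% of counts in CEBPG and 0.746% in CHOP knockouts, and T and NK lymphocyte markers, at 0.181 ± 0.0345% and 0.0345 ± 0.00597% (SD, n = 4 and 5), moved with this comparison, and their part in it was not tested. Of 9 Müller glia markers 2 were called higher and 7 lower, and of 9 amacrine markers 7 were called lower, in CEBPG knockouts. Of 9 microglia markers 7 were called higher and 0 lower there. The part of these markers was not tested either. With the rod level as a covariate all 9 calls were lost, where 12% of all genes were called. Canx alone was called then, lower in CEBPG knockouts (log2 fold change -0.71, adjusted p = 0.0408).

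The ATF3 knockouts differed from the CEBPG knockouts in 3 of the 31 genes (9.68%), where 20.4% of all genes were called. The ranges were apart for 9 of the 31 (29%), where they were for 22.3% of all genes. Edem1 (log2 fold change -1.19, SE 0.24, adjusted p = 0.000767) and Sdf2l1 (-0.46, SE 0.15, adjusted p = 0.0278) were lower and Calr (0.49, SE 0.12, adjusted p = 0.00577) was higher in ATF3 knockouts. The Edem1 call held under every alternative tried. The Sdf2l1 call was lost without ATF3 replicates 7 or 8 or CEBPG replicate 6 (adjusted p = 0.0691, 0.0508 and 0.0797 in turn) and without CEBPG replicates 6 and 8 together (adjusted p = 0.143), and the Calr call without CEBPG replicates 6 and 8 together (adjusted p = 0.136). In the ATF3 knockouts T and NK lymphocyte markers were called lower for 9 of 9, bipolar markers higher for 7 of 9, amacrine markers higher for 6 of 9, and Müller glia markers higher for 7 and lower for 1 of 9 against the CEBPG knockouts. Between the ATF3 and CHOP knockouts none of the 31 genes was called by edgeR, where 2.26% of all genes were (1.51% higher). An unadjusted p below 0.05 was found for 5 of the 31 (16.1%), near the 12.9% of all genes that had one. DESeq2 called none, where 4.02% of all genes were called. With these 2 groups fitted alone edgeR called 2, where 7.96% of all genes were called. The ranges of the groups were apart for 5 genes, Xbp1, Sdf2l1, Calr, Pdia3 and Sec61b, all higher in ATF3 knockouts (16.1%, against 8.06% of all genes). Rod markers were called lower for 9 of 12 and bipolar markers higher for 8 and lower for 1 of 9 in ATF3 against the CHOP knockouts. The part of these markers in either comparison was not tested.

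**Figure D5:**
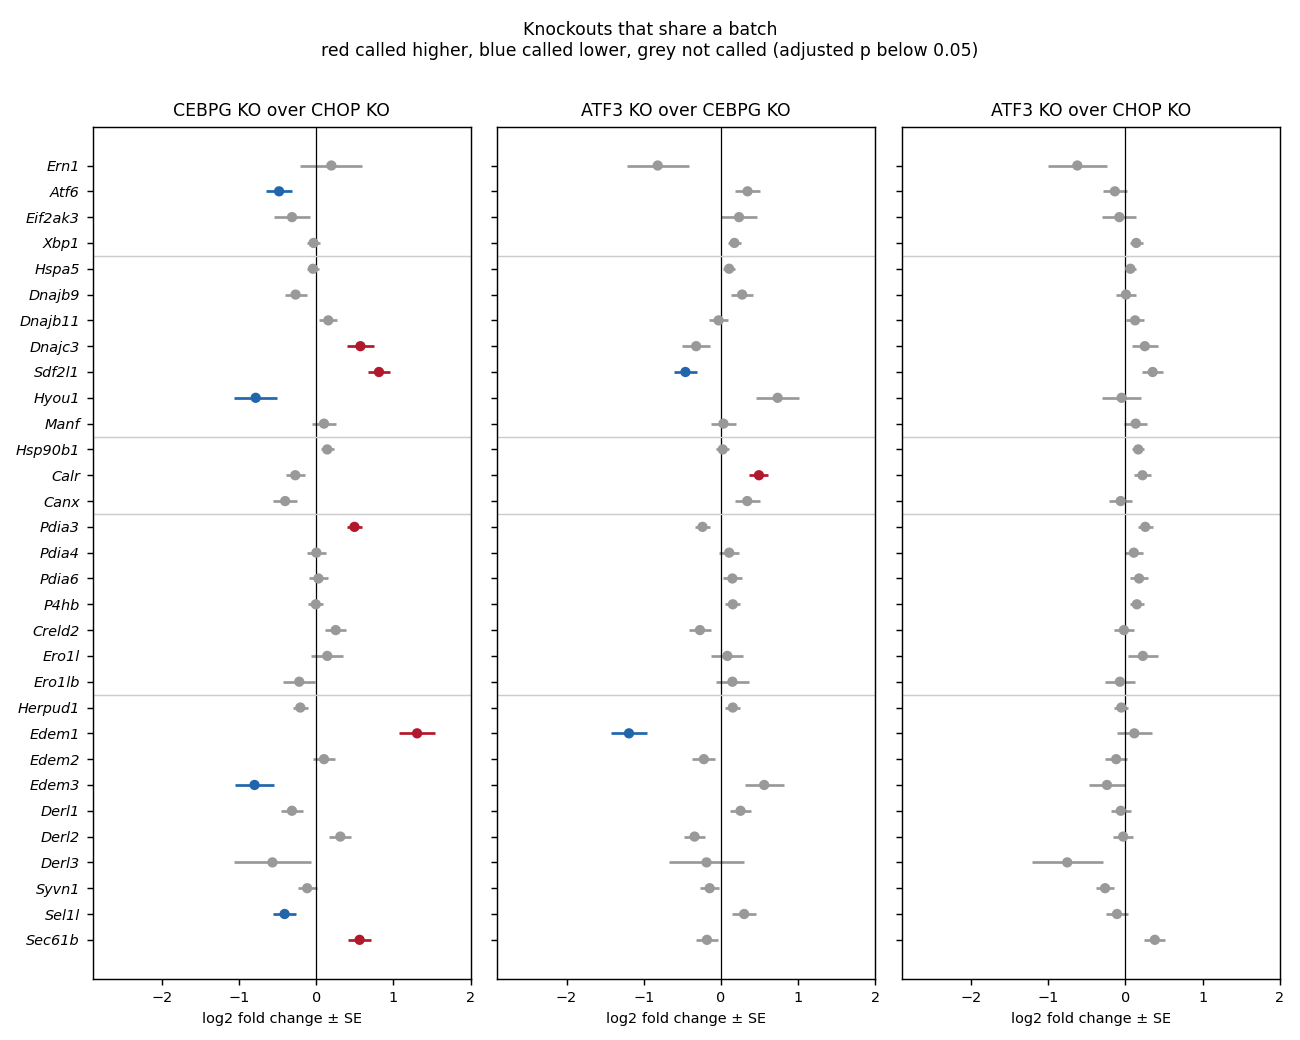
log2 fold change with its SE (horizontal axis) of the 31 genes between knockouts of batch 3, in 1 panel each for CEBPG over CHOP, ATF3 over CEBPG and ATF3 over CHOP, with red for called higher, blue for called lower and grey for not called. Edem1 and Sdf2l1 are called in both panels that hold the CEBPG knockouts, and the ATF3 over CHOP panel has no call.

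A further 77 genes of the ER, covering translocation, glycosylation, folding, ERAD, sensor control and transport out of the ER, were all tested. Against control 27 were called in ATF3 (16 higher and 11 lower), 25 in ATF4 (14 and 11), 18 in CEBPG (8 and 10) and 21 in CHOP knockouts (12 and 9), with median log2 fold changes of 0.07, 0.02, -0.06 and 0.00. These are 35.1%, 32.5%, 23.4% and 27.3% of the 77, where 33.4%, 31.3%, 33.4% and 33.5% of all genes were called. The counts were 17 in ATF3 knockouts without control replicate 5 and 11 in CHOP knockouts without control replicate 8. Of all genes 27.9% and 28.2% were then called. The ATF4 count also fell without ATF4 replicate 1, which leaves 1 library, as did the share of all genes. The largest difference was in Pdia5, an isomerase of the same family as Pdia3, which averaged 10.9 ± 2.90 CPM in ATF3, 17.9 ± 0.259 in ATF4, 14 ± 2.41 in CEBPG and 16.5 ± 2.84 in CHOP knockouts, against 133 ± 35.0 CPM in the controls (SD, n = 5, 2, 4, 5 and 4). Its log2 fold changes were -3.60, -2.89, -3.26 and -3.01. With the rod marker level as a covariate these calls were lost (adjusted p = 0.619, 0.578, 0.644 and 0.374). So were the calls against control of the other further genes named here and below. Of all genes 0.0476%, 0.0833%, 0.161% and 0.202% were then called in that order. The part of the rod markers in these differences was not tested. Erp44, a thiol protein that retrieves clients from the Golgi, rose in ATF3 (log2 fold change 0.89, SE 0.14, adjusted p = 2.67e-05), CEBPG (0.68, SE 0.15, adjusted p = 0.000856) and CHOP knockouts (0.69, SE 0.14, adjusted p = 0.000479). Ppp1r15a, which encodes GADD34, the phosphatase subunit that ends the PERK signal, fell in ATF3 knockouts to 53.3 ± 5.20 CPM, against 104 ± 15.1 CPM in the controls (log2 fold change -0.97, SE 0.24, adjusted p = 0.00306). Wfs1, a regulator of ATF6 stability, rose there (log2 fold change 0.92, SE 0.20, adjusted p = 0.000976). Rnf5, a ubiquitin ligase of the ER membrane, fell in ATF3 (-0.58, SE 0.13, adjusted p = 0.00127) and CHOP knockouts (-0.64, SE 0.13, adjusted p = 0.00043).

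In the ATF4 knockouts the further genes called included the channel subunit Sec61g (log2 fold change 1.10, SE 0.20, adjusted p = 0.000193), the translocation factor Sec62 (0.70, SE 0.14, adjusted p = 0.000424) and the prolyl isomerase Fkbp2 (1.03, SE 0.20, adjusted p = 0.000305), which rose. The cargo receptor Lman1 (-0.97, SE 0.17, adjusted p = 0.000106) and the thioredoxin-like Tmx1 (-0.87, SE 0.19, adjusted p = 0.000897) fell. The Tmx1 call was lost without ATF4 replicate 1 (adjusted p = 0.0543). The other 4 stayed called without ATF4 replicate 1, with log2 fold changes of 1.02 for Sec61g (adjusted p = 0.00632), 0.62 for Sec62 (0.0154), 0.78 for Fkbp2 (0.027) and -0.84 for Lman1 (0.00857). Lman1 (-0.87, SE 0.13, adjusted p = 1.57e-05) and Tmx1 (-0.85, SE 0.15, adjusted p = 7.29e-05) also fell in CEBPG knockouts. Spcs3, a subunit of the signal peptidase, rose there (0.85, SE 0.14, adjusted p = 3.63e-05). The coat protein Sec24d reached 29.9 ± 9.34 CPM against 6.20 ± 4.09 CPM in the controls (2.28, SE 0.39, adjusted p = 5.91e-05). In the CHOP knockouts March6, an ERAD ubiquitin ligase, rose (log2 fold change 1.33, SE 0.26, adjusted p = 0.000297), as did the transcription factor Creb3l1 (2.14, SE 0.54, adjusted p = 0.00337), and the ubiquitin-conjugating enzyme Ube2g2 fell (-0.64, SE 0.13, adjusted p = 0.000418). Within batch 3, 13 of the 77 genes were called between the ATF3 and CEBPG knockouts, 17 between the CEBPG and CHOP knockouts and 1, the cargo receptor Surf4, between the ATF3 and CHOP knockouts (log2 fold change 0.39, SE 0.091, adjusted p = 0.0211). These are 16.9%, 22.1% and 1.3% of the 77, where 20.4%, 26.7% and 2.26% of all genes were called. The Surf4 call was lost without ATF3 replicates 5 or 9 or CHOP replicates 1, 4 or 5 (adjusted p = 0.0594, 0.0588, 0.0565, 0.0501 and 0.0602 in turn). The count between the ATF3 and CEBPG knockouts was 8 without ATF3 replicate 7, 8 or 9 and 7 without CEBPG replicate 6. Of all genes 17.1%, 16.6%, 17.1% and 17.5% were then called in turn.

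The authors' deposited table of fold changes gave a different picture of these genes. Its FDR was below 0.05 for 1 of the 31, Atf6 in CEBPG knockouts (log fold change -0.51, FDR 0.0436), and for none in the other knockouts, where 7.99% (ATF3), 5.77% (ATF4) and 7.3% (CHOP) of its 17100 genes passed and 22.1% did in CEBPG knockouts. Of the genes called here, the authors' deposited table had the same sign for 7 of 12 in ATF3, 10 of 10 in ATF4, 8 of 8 in CEBPG and 7 of 10 in CHOP knockouts. Over all 31 genes the authors' deposited table had the same sign as the fit here for 14 in ATF3, 22 in ATF4, 21 in CEBPG and 17 in CHOP knockouts. In the authors' deposited table Hspa5 was at -0.51 in ATF4 knockouts and at 0.078, 0.10 and 0.097 in ATF3, CEBPG and CHOP knockouts, and Canx at -0.10 in ATF3 and 0.11 in CHOP knockouts. For these values no model, covariate or group of comparison is given in the sources used here.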

How the data were processed

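RNA of sorted cells was made into libraries with the SMART-Seq v4 kit, per the labels' protocols. STAR, Picard, HTSeq and edgeR are named without versions and the build is mm10, per the submitters' processing notes. For the settings, the annotation and the use of strand, nothing is given in the sources used here. The deposited table holds raw read counts per gene, which were used as deposited. The authors also deposited log fold changes (log2 assumed, as edgeR is named) with p-values and FDR, and a sheet with batch, sex and the duplicate fraction of read pairs (48.0% to 57.6%), of which 37 other numeric columns were not used.

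Counts of 20 libraries were scaled with TMM in edgeR 4.0.16 (R 4.3.3), filtered at a minimum count of 10 (367 of 17164 genes removed) and tested with 1 quasi-likelihood fit over 5 groups (15 residual degrees of freedom and a coefficient of biological variation of 0.407), with Benjamini-Hochberg adjustment over all genes. SEs come from the log2 fold change and its F statistic. Alternatives used DESeq2 1.42.0, other scalings, filters, fits and covariates, and left out each library. The test was tried on simulated data. No label ties a library to its own animal. The p-values therefore measure only the spread between libraries, which may be technical. Replicate libraries differed beyond sampling noise (chi-square per gene 12.9 to 64.6). The genes and lists were chosen with earlier results of these data known. Values in every library are given for the 3 called genes with the smallest adjusted p in each comparison and for Hspa5, Xbp1, Ern1, Atf6 and Eif2ak3, and up to 3 further ER genes are named per direction and comparison.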

Additional observations from a re-analysis of the deposited data

Results flagged for a closer look

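Of 124 groups of 4 or 5 libraries tested over the 31 genes, 6 held a library far from the others of its group, and chance gives about 1 in 20. Xbp1 was at 201.2 CPM in CHOP replicate 2, where the nearest library of the group had 229.3 CPM. Sdf2l1 was at 34.08 CPM in ATF3 replicate 7 (nearest 38.16 CPM). Ero1lb was at 42.65 CPM in CEBPG replicate 6 (nearest 29.36 CPM). Edem1 was at 38.67 CPM in control replicate 8 (nearest 42.33 CPM). In CHOP replicate 4, Derl2 was at 38.12 CPM (nearest 52.17 CPM) and Syvn1 at 120.7 CPM (nearest 89.65 CPM).

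The direct comparisons of the ATF4 with the ATF3, CEBPG and CHOP knockouts test whether changes against control differ. Of the 31 genes 15, 10 and 16 passed (48.4%, 32.3% and 51.6%), where 24.7%, 30.9% and 25.7% of all genes did. Against the CEBPG knockouts the share was thus near that of all genes. Among the genes that passed, 2 were called in opposite directions against control. For Hspa5 the log2 change in ATF4 knockouts minus that in ATF3 knockouts was -0.9081 (adjusted p = 4.8e-06), minus that in CEBPG knockouts -0.8014 (adjusted p = 5.45e-06) and minus that in CHOP knockouts -0.8451 (adjusted p = 1.11e-05). For Hsp90b1 the difference was -0.8468 against the ATF3 (adjusted p = 1.42e-05) and -0.8231 against the CEBPG knockouts (adjusted p = 5.82e-06). Against the CHOP knockouts, where Hsp90b1 was not called relative to control, it was -0.68 (adjusted p = 0.000117). Both ATF4 libraries were below all libraries of the other knockouts for both genes.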

How the results depend on the processing

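Over 93 calls of the 31 genes, 6 held under every alternative. Of 1400 alternative values 1143 kept direction and side of the threshold, 250 kept direction only and 7 reversed. With the rod marker level as a covariate the count against control was 0 in each knockout. Of all genes 0.0476%, 0.0833%, 0.161% and 0.202% were then called in ATF3, ATF4, CEBPG and CHOP knockouts. Counts were 1 for CEBPG against CHOP and 10 for ATF4 against CHOP, where 12% and 18.2% of all genes were called. ATF4 against ATF3, ATF4 against CEBPG and ATF3 against CEBPG gave 17, 11 and 4, where the main fit gave 15, 10 and 3. Of all genes 25.3%, 31.3% and 21.1% were called there with the covariate. ATF3 against CHOP stayed without a call. Reversed with the rod covariate were Hyou1 (-1.12), Canx (-0.25), Creld2 (0.30), Rnf5 (0.45) and Ppp1r15a (0.89) in ATF3 knockouts. Hspa5 (-0.017) and Canx (-0.60) in CEBPG and Hyou1 (-0.61), Creld2 (0.12) and Rnf5 (0.14) in CHOP knockouts reversed too. Replicate numbers did not pair the libraries (12 pairs, r of -0.0476 to 0.0264). With a replicate block the counts were 9 in ATF3, 0 in ATF4, 3 in CEBPG and 3 in CHOP knockouts against control. The block cut the calls of all genes as well, to 25.5%, 7.87%, 18.3% and 16.2% in that order. For CEBPG against CHOP it left 1 of the 31 genes called, and 3.08% of all genes. For ATF4 against ATF3, CEBPG and CHOP it left 0, 1 and 5, and 0.566%, 4.02% and 8.95% of all genes. With 2 groups fitted alone the counts were 5 for CEBPG against control, 7 for ATF3 against CEBPG and 2 for ATF3 against CHOP. Of all genes 26.2%, 22.8% and 7.96% were then called in that order. ATF3 against CEBPG gave 5 in the fit of batch 3 alone and 5 with DESeq2, where 23.3% and 23.9% of all genes were called. Without CEBPG replicates 6 and 8 together, an alternative chosen after seeing the data, CEBPG against control gave 13. Of all genes 31% were then called. Leaving out 1 library gave 10 to 12 in ATF3, 4 to 13 in ATF4, 5 to 11 in CEBPG and 8 to 10 in CHOP knockouts against control, 2 to 4 for ATF3 against CEBPG, 0 to 0 for ATF3 against CHOP, 5 to 9 for CEBPG against CHOP, and 6 to 14, 7 to 12 and 6 to 16 for ATF4 against ATF3, CEBPG and CHOP. The share of all genes called shifted between these settings too. With 1 library left out it was 27.3% to 32.6% in ATF3, 28.8% to 33% in CEBPG and 28.2% to 32.5% in CHOP knockouts against control. It was 16.6% to 20.5% for ATF3 against CEBPG, 1.38% to 2.1% for ATF3 against CHOP and 22.6% to 25.9% for CEBPG against CHOP. For ATF4 against control it was 27.1% to 33.3% with 1 control left out, and lower with an ATF4 library left out. The cause of these shifts was not tested.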

Other observations

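The library titled as a control but with the CHOP knockout as its genotype (batch 4, 33665965 counts) lay within the range of the controls for 7 of the 31 genes and within that of the CHOP knockouts for 12. It lay within both ranges for 3 genes and within neither for 15. The same was not counted over all genes, so these counts are not in themselves a result about the 31. In this library the level of Edem1, the mannosidase-like ERAD factor, was 138 CPM, and that of Pdia3 was 823 CPM. Both were above every CHOP and control library. Hspa5 was at 1014 CPM and Hsp90b1 at 777 CPM in it, above both ranges as well.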
